A study of Rattus norvegicus with 4 samples.

Results

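The microRNA (miRNA) miR-129-5p and the other products of its 2 hairpins, Mir129-1 and Mir129-2, were followed in cultured aortic vascular smooth muscle cells of Sprague-Dawley rats. Reads were counted for miR-129-5p if the first 18 nt of the sequenced tag equalled those of the rat mature sequence, which gave 57 distinct tags of the 2397853 in the series, 9 of them with at least 10 reads. The 4 libraries, 1 per group, came from cells kept without serum for 48 h and either left untreated (control) or given 100 nM Ang II (angiotensin II, the vessel-constricting hormone of the renin system) for 1 h, 3 h or 24 h. There is thus no replicate check anywhere below, and since the control carries no time label, effects of the hormone and of hours in culture cannot be told apart. The miRNA was chosen by its reads in these same 4 libraries, for a higher level with Ang II, so its levels are a description and carry no test. Ranges after a value are exact 95% intervals. For a count of 0 a one-sided limit of 3 reads is given in their place. Both reflect counting error alone. They also treat reads as independent, and since reads copied by PCR are not independent molecules, they can be too narrow.

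A miRNA is cut from a long primary transcript in steps. The nuclear enzyme Drosha releases a hairpin, Dicer then removes the loop, and of the duplex that remains an Argonaute protein usually keeps the strand whose 5' end is less tightly paired while the other arm and the loop are degraded. miR-129 is best known from the brain, where it is enriched in neurons, and its 5' arm is the form usually studied. Its gene Mir129-2 is also known for being silenced by DNA methylation in several cancers.

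The sequences below are from RefSeq (assembly GRCr8) and show why the 5' arm cannot be given to either gene while the loop and the 3' arm can. In the hairpins the capitals mark the mature arms, and in the mature sequences they mark the seed, bases 2 to 8, through which a miRNA pairs with its targets.
Mir129-2 hairpin (chr3:100657390-100657486, minus strand): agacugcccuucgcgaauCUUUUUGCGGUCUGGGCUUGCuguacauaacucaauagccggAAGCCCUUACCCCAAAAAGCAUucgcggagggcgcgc
Mir129-1 hairpin (chr4:58589711-58589782, plus strand): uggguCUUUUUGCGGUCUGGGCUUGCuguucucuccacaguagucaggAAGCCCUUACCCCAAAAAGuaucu
miR-129-5p, from both: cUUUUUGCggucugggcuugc
miR-129-2-3p: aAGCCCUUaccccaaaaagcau
miR-129-1-3p: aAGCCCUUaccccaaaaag
The 5' arm is the same in both hairpins, 21 nt long, and no other of the 692 distinct rat mature sequences in the table shares its seed or its first 18 nt. The 3' arms share their first 19 nt, after which Mir129-2 continues with c and Mir129-1 with u. By the RefSeq gene table Mir129-1 lies within the span of the long noncoding gene LOC120102250, between Snd1 and Lep, whereas Mir129-2 lies in no other gene's span, with Ttc17 and Api5 on one side and a tRNA gene (Trnaa-agc) and Hsd17b12 on the other.

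Reads with a sequence numbered 14395539 in the control, and in the Ang II libraries 13119417 at 1 h, 14370167 at 3 h and 14534892 at 24 h. Reads that began like any rat mature miRNA of the table made up 68.4% to 74.4% of them. The smooth muscle markers miR-143 and miR-145 were abundant in every library, with miR-143-3p at 248000 RPM in the control (reads scaled to a library total of 1000000) and 303000 to 310000 RPM with Ang II. Of the markers of other cells, the endothelial miR-126a-3p lay between 96.3 and 115 RPM, the blood and immune list summed to 0.695 to 1.32 RPM, and the epithelial list to 4.38 RPM in the control against 6.71, 4.18 and 4.47 RPM with 1 h, 3 h and 24 h of Ang II. The 1 h library, highest for the miR-129 loop, was also highest for the epithelial miR-200c-3p (1.64 times the control, 1.13 to 2.38). The same held for miR-141-3p (8 reads against 0). The epithelial miR-203a-3p instead had fewer reads there, 4 against 12 (0.366 times the control, 0.086 to 1.21). None of miR-141-5p, miR-200a-5p and miR-200b-5p was read in either library. The part of these epithelial miRNAs in the results was not tested. The striated muscle list summed to 99.8 to 124 RPM and the liver and endocrine list to 0.0688 to 0.229 RPM.

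miR-129-5p was higher at every time of Ang II than in the control. It had 478 reads in the control (33.2 RPM, 30.3 to 36.3), 1179 at 1 h (89.9 RPM, 84.8 to 95.1), 1304 at 3 h (90.7 RPM, 85.9 to 95.8) and 1004 at 24 h (69.1 RPM, 64.9 to 73.5). The 1 h and 3 h libraries were alike within counting error, with a ratio of 3 h over 1 h of 1.01 (0.933 to 1.09). The 24 h level lay between them and the control, at 0.761 times that of 3 h (0.700 to 0.827). Against the control the ratios were 2.71 at 1 h (2.43 to 3.02), 2.73 at 3 h (2.46 to 3.04) and 2.08 at 24 h (1.86 to 2.32). By level it stood 118th of the 363 miRNAs with reads in the control, 91st of 363 at 1 h, 89th of 356 at 3 h and 91st of 357 at 24 h, which is in the upper part of the list in every library.

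Few miRNAs differed as much from the control at the early times. A miRNA was called higher if log2((RPM + 1)/(control RPM + 1)) passed 1.5-fold and its higher library had 100 reads or more. By that rule 4 of 174 miRNAs were higher at 1 h (2.3%), 7 of 176 at 3 h (3.98%) and 9 of 178 at 24 h (5.06%), and miR-129-5p, which had been chosen for this, was among them at each time. Lower by the same rule were 4 (2.3%), 8 (4.55%) and 30 (16.9%). The split depended on the scale: with TMM factors 7, 11 and 14 were higher and 3, 7 and 9 lower, with median-of-ratios factors 7, 10 and 13 higher and 3, 7 and 11 lower, and scaled to mature miRNA reads 3, 5 and 9 higher and 9, 15 and 45 lower. With a minimum of 20 reads 3.25%, 5.24% and 4.9% were higher. The log2 ratio of miR-129-5p was 1.41 at 1 h, the highest of the 174, 1.42 at 3 h, where it was the second highest after miR-222-5p (1.90), and 1.03 at 24 h, the third highest. Above it at 24 h stood miR-132-3p, a miRNA under the control of the factor CREB (1.26), and miR-129-2-3p, the 3' arm of Mir129-2 (1.60). The median log2 ratio of all miRNAs tested was -0.09 at 1 h, -0.06 at 3 h and -0.25 at 24 h under this scale.

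**Figure D1:**
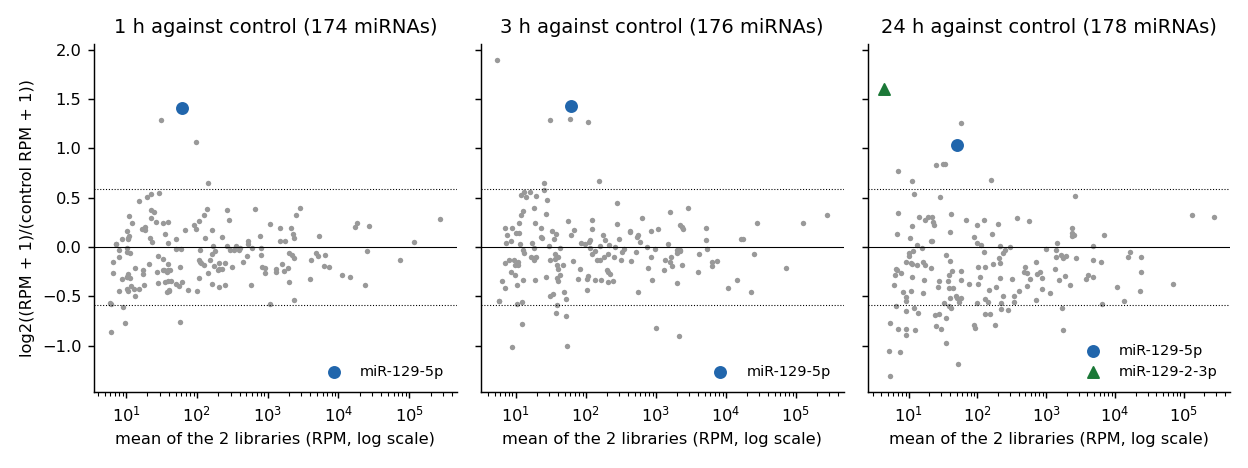
Each dot is a rat miRNA with at least 100 reads in the higher library, with its mean level in RPM on a log axis and its log2 ratio to the control at 1 h, 3 h and 24 h; dotted lines mark 1.5-fold. miR-129-5p (blue circle) has log2 ratios of 1.41, 1.42 and 1.03, and miR-129-2-3p (green triangle) has 100 reads at 24 h alone, with 1.60.

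The loop of the Mir129-2 hairpin was read mostly at 1 h. Tags in the gap between the arms, allowing 2 nt of overlap with either, had 3 reads in the control (0.208 RPM, 0.0430 to 0.609), 108 at 1 h (8.23 RPM, 6.75 to 9.94), 22 at 3 h (1.53 RPM, 0.959 to 2.32) and 2 at 24 h (0.138 RPM, 0.0167 to 0.497). The 1 h library stood apart from the other 3, the 3 h library lay between, and the control and 24 h libraries overlapped. The ratio to the control was 39.5 at 1 h (13.2 to 195) and 7.35 at 3 h (2.21 to 38.3), wide because the control had 3 reads, and the level at 3 h was 0.186 times that at 1 h (0.112 to 0.296). These counts were looked at after the tags lying in the 2 hairpins had been seen.

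Most loop reads came from a single tag. Of the 5 loop tags, the most read had 2 reads in the control, then 93, 20 and 2 after 1 h, 3 h and 24 h, and is shown in capitals within the Mir129-2 hairpin because it carries this result.
Loop tag in Mir129-2: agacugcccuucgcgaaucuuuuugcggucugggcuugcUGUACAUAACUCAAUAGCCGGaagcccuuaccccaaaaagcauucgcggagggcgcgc
It is 21 nt long and fills the gap between the arms exactly, starting on the base after the 5' arm and ending on the base before the 3' arm. Mir129-2 is the 1 hairpin of the 419 tabulated that holds it, and other places in the genome were not searched here. The other 4 loop tags had 1 read in the control and 15 (1 h), 2 (3 h) and 0 (24 h) in the Ang II libraries. No tag lay in the loop of Mir129-1 in any library, which allows up to 3 reads, or 0.206 to 0.229 RPM, by the one-sided limit. A 42 nt tag that runs from the 5' arm through this loop (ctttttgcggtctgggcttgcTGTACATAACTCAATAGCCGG, the loop in capitals) had 1 read at 1 h and 1 at 3 h, and 0 in the control and at 24 h, where a count of 0 allows as much as 3 reads; 42 nt is the longest tag in these files.

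**Figure D2:**
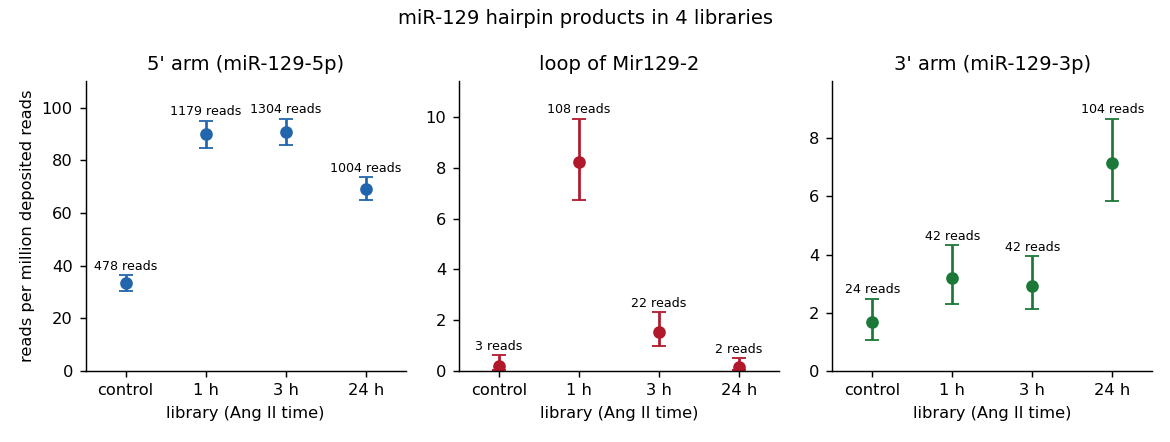
Levels in RPM of the 5' arm, the Mir129-2 loop and the 3' arm in the control, 1 h, 3 h and 24 h libraries, each panel with its own axis from 0; points are single libraries, bars are exact 95% Poisson intervals, and read counts are printed. The 5' arm is highest at 1 h and 3 h (89.9 and 90.7 RPM), the loop at 1 h (8.23 RPM) and the 3' arm at 24 h (7.16 RPM).

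Loop reads of other hairpins did not stand as far from the control at 1 h. Among the 263 hairpins with both arms in the table, 47 had any loop read, and their sum was 67.2 RPM in the control, then 80.3, 71.5 and 55.3 after 1 h, 3 h and 24 h. With 1 read added to each count and at least 20 loop reads in the higher library, 3 of 6 hairpins were past 1.5-fold higher at 1 h (50.0%), 3 of 8 at 3 h (37.5%) and 0 of 5 at 24 h (0.0%). Mir129-2, with 3 reads in the control, passed this minimum only through its reads with Ang II, so its place among the 6 is a description. Its log2 ratio at 1 h was 4.90, against 1.23 for Mir27a, the next of the 6. Hairpins under 20 reads were not ranked, among them Mir222 (1 read in the control and 8 at 1 h) and Mir23b (4 and 15). At 3 h Mir129-2 (2.53) was second to Mir222 (3.91), whose loop had 1 read without Ang II and 29 at 3 h. The log2 ratio of Mir129-2 at 24 h was -0.43, on 2 reads against 3.

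**Figure D3:**
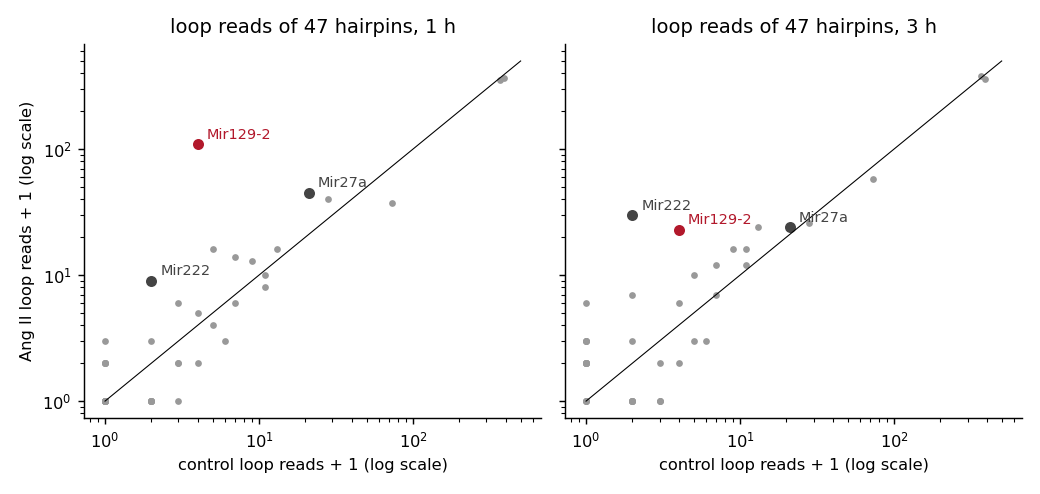
Loop reads plus 1 of 47 hairpins in the control (x, log axis) against the 1 h and 3 h libraries (y, log axis), 1 dot per hairpin, with the line of equal reads. Mir129-2 goes from 3 reads to 108 at 1 h and 22 at 3 h, and Mir222 from 1 to 8 and 29.

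The 3' arm was highest at 24 h instead. Tags with the first 18 nt of the 3' arms had 24 reads in the control (1.67 RPM, 1.07 to 2.48), 42 at 1 h (3.20 RPM, 2.31 to 4.33), 42 at 3 h (2.92 RPM, 2.11 to 3.95) and 104 at 24 h (7.16 RPM, 5.85 to 8.67). The 24 h library stood apart from the others, while the intervals of the control, 1 h and 3 h overlapped, with the early libraries at the higher end. The ratio to the control was 1.92 at 1 h (1.14 to 3.32), 1.75 at 3 h (1.04 to 3.03) and 4.29 at 24 h (2.73 to 7.0). There were 11 such tags, 3 of them with at least 10 reads.

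All 3' arm reads that reach the base where the hairpins differ, and match either, came from Mir129-2. They numbered 24 in the control and 39 (1 h), 42 (3 h) and 102 (24 h) in the Ang II libraries, against 0 for Mir129-1 in each library, which again allows up to 3 reads. The most read was the whole miR-129-2-3p (aagcccttaccccaaaaagcat) with 13, 24, 28 and 48 reads in the control and at 1 h, 3 h and 24 h. Its 20 nt form (aagcccttaccccaaaaagc) had 4, 12, 10 and 29, and its 21 nt form (aagcccttaccccaaaaagca) 5, 3, 4 and 18. The whole form was between 46.2% and 66.7% of the 3' arm reads, with overlapping intervals in the 4 libraries.

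The balance of the arms therefore differed between the early and the late libraries. The 3' arm made up 4.78% of the reads of both arms in the control (3.09 to 7.03), 3.44% at 1 h (2.49 to 4.62), 3.12% at 3 h (2.26 to 4.19) and 9.39% at 24 h (7.73 to 11.3). The intervals of the control, 1 h and 3 h overlapped, and that of 24 h lay above all 3. The ratio of the less read to the more read arm, with 1 read added to the former, stood 1.5-fold or more above the control for 6 of 54 hairpins or groups of hairpins at 1 h (11.1%), 7 of 55 at 3 h (12.7%) and 6 of 55 at 24 h (10.9%). For miR-129 the log2 change of this ratio was -0.52 at 1 h, -0.67 at 3 h and 1.00 at 24 h, where it was the third highest, against medians of -0.02, 0.0040 and -0.10.

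Within the 5' arm nearly all of the difference at 1 h and 3 h lay in 1 tag, the mature sequence itself. Its main tags are printed with bases added beyond the mature end in capitals.
mature, 21 nt: ctttttgcggtctgggcttgc
plus A: ctttttgcggtctgggcttgcA
plus AA: ctttttgcggtctgggcttgcAA
shorter, 20 nt: ctttttgcggtctgggcttg
The mature tag had 387 reads in the control (26.9 RPM, 24.3 to 29.7), 1102 at 1 h (84.0 RPM, 79.1 to 89.1), 1207 at 3 h (84.0 RPM, 79.3 to 88.9) and 868 at 24 h (59.7 RPM, 55.8 to 63.8). All other 5' arm tags together had 91 reads in the control (6.32 RPM, 5.09 to 7.76), 77 at 1 h (5.87 RPM, 4.63 to 7.34), 97 at 3 h (6.75 RPM, 5.47 to 8.23) and 136 at 24 h (9.36 RPM, 7.85 to 11.1). The mature tag was thus 3.12 times the control at 1 h (2.78 to 3.52) and at 3 h (2.78 to 3.51), while the others were 0.928 times it at 1 h (0.676 to 1.27) and 1.07 times at 3 h (0.794 to 1.44). At 24 h the ratios were 2.22 (1.97 to 2.51) for the mature tag and 1.48 (1.13 to 1.95) for the others.

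As a share of miR-129-5p reads the mature tag went from 81.0% in the control (77.2 to 84.4) to 93.5% at 1 h (91.9 to 94.8), 92.6% at 3 h (91.0 to 93.9) and 86.5% at 24 h (84.2 to 88.5). The control and 24 h intervals overlapped at their ends, and the early libraries lay above both. Across 160 miRNAs with 100 reads in each library, the share of the most read tag was at least 10 percentage points higher than in the control for 5 miRNAs at 1 h (3.12%), for 5 at 3 h (3.12%) and for 8 at 24 h (5.0%), and the median difference was 0.366, 0.140 and 0.708 points. miR-129-5p had 12.5 points at 1 h and 11.6 at 3 h, and 3 other miRNAs lay as far up or further at each of these times; at 24 h it had 5.49 points, with 22 others as far up. At 1 h the other 4 of the 5 were miR-1843b-5p, miR-221-5p, miR-21-3p and miR-15b-3p, named after their values were seen. The log2 ratio to the control was higher for its most read tag than for its other tags, by 1.70 at 1 h and 1.53 at 3 h. These were the highest values of the 160 at both times, and at 24 h the value was 0.622. Since the miRNA was chosen for its higher level, which lay mostly in this tag, that rank is a description.

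The most common variant was the mature sequence with A added at its 3' end, which neither hairpin encodes, since both continue with u. Tags with 1 or more added A had 48 reads in the control, then 29, 39 and 82 after 1 h, 3 h and 24 h, or 10.0% of miR-129-5p reads in the control (7.50 to 13.1), 2.46% at 1 h (1.65 to 3.51), 2.99% at 3 h (2.14 to 4.07) and 8.17% at 24 h (6.55 to 10.0). By this share the early libraries were low and the control and 24 h libraries high. By level the same tags had 3.33 RPM in the control (2.46 to 4.42), 2.21 at 1 h (1.48 to 3.17) and 2.71 at 3 h (1.93 to 3.71), with overlapping intervals. At 24 h they had 5.64 RPM (4.49 to 7.0), above the control. Adenylation of 3' ends is a known modification of mature miRNAs, but a lone A is also the first base of the 3' adapter in the labels' protocol, so an added A and an adapter base left by trimming cannot be told apart for that tag. In 107 miRNAs whose hairpin does not continue with A, the share of the most read tag plus 1 A had a median of 1.34% in the control and 1.67% (1 h), 1.68% (3 h) and 1.47% (24 h) in the Ang II libraries. For miR-129-5p that share was 7.95% in the control, then 2.21%, 2.30% and 7.07% after 1 h, 3 h and 24 h. Its differences of -5.74 points at 1 h and -5.65 at 3 h were the lowest of the 107, and at 24 h (-0.878) 17 others were as low. That rank carries little weight, since a share near the control median of 1.34% cannot fall so far. The share also falls when the mature tag, which is part of its total, has more reads, as it did at 1 h and 3 h.

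**Figure D4:**
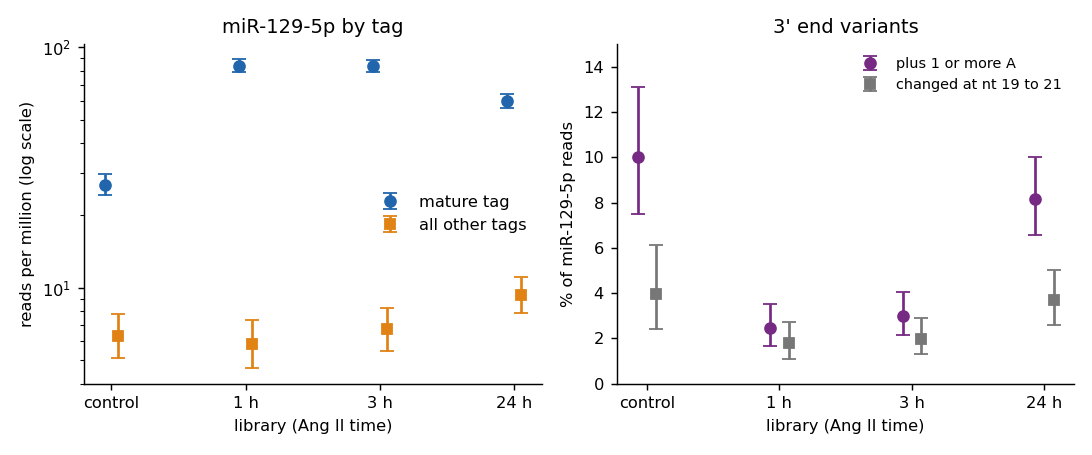
Left, RPM (log axis) of the mature miR-129-5p tag and of all other 5' arm tags in the 4 libraries; right, the share of miR-129-5p reads with 1 or more A added and with a changed base at nt 19 to 21. Bars are exact 95% intervals; the mature tag is near 84.0 RPM at 1 h and 3 h against 26.9 in the control, and the share with added A is 2.46% and 2.99% there against 10.0%.

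Other variants had few reads. Tags changed within nt 19 to 21 had 19 reads in the control and 21 (1 h), 26 (3 h) and 37 (24 h) in the Ang II libraries, tags shorter than the mature sequence 9, 14, 10 and 6, and tags that went on as the hairpin does 0, 1, 4 and 4. Tags with other bases added had 15, 12, 18 and 7 reads. The 5' end, which sets the seed, hardly varied: tags that began 1 nt further in had 4, 7, 9 and 1 reads in the control and at 1 h, 3 h and 24 h, those that began 1 nt earlier 0, 3, 0 and 2, and none began 2 nt to either side. The run of 5 T near the start was read as 4 T in 1 read, at 3 h.

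Tags just outside the matching rule by the length of their match were few, while those outside it by 1 mismatch were more. Those that matched 16 nt but not 18 had 1, 3, 3 and 5 reads in the control and at 1 h, 3 h and 24 h, and those just inside, which matched 18 nt but not 20, had 9, 18, 16 and 15. Tags with 1 mismatch in the first 18 nt had 42, 103, 123 and 110 reads. They thus kept a similar share beside the matching reads, 8.08% in the control (5.88 to 10.8), 8.03% at 1 h (6.60 to 9.66), 8.62% at 3 h (7.21 to 10.2) and 9.87% at 24 h (8.19 to 11.8).

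The miRNA whose pattern over the 4 libraries was most like that of miR-129-5p was miR-21-3p, the minor strand of Mir21. Likeness was the Euclidean distance between log2(RPM + 1) values centred on each miRNA's own mean, over 178 miRNAs with 100 reads in their highest library, which share the same 4 libraries and their depths. The distance was 0.144 for miR-21-3p and 0.568 for miR-221-5p, followed by miR-31a-3p (0.741), miR-547-3p (0.748) and miR-7a-5p (0.771), against a median of 1.29. miR-21-3p had 253 reads in the control (17.6 RPM), 583 at 1 h (44.4 RPM), 639 at 3 h (44.5 RPM) and 467 at 24 h (32.1 RPM), or 2.53, 2.53 and 1.83 times the control, close to the 2.71, 2.73 and 2.08 of miR-129-5p. miR-221-5p stood at 2.11, 2.43 and 1.21 times the control, so it was nearer to the control at 24 h. The remaining 3 had ratios between 1.25 and 1.60. Of these 5 miRNAs, 3 are the less read arm of their hairpin (miR-21-3p, miR-221-5p and miR-31a-3p), whereas miR-129-5p is the more read arm of its own. The share of less read arms among all 178 was not counted, so whether 3 of 5 is unusual is not known.

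**Figure D5:**
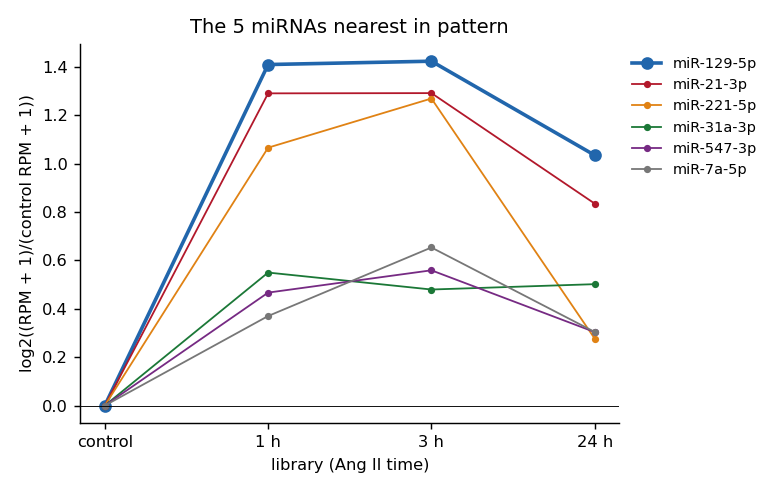
Log2 ratio to the control, on RPM + 1, of miR-129-5p and of the 5 miRNAs nearest to it in pattern at 1 h, 3 h and 24 h, 1 line per miRNA and 1 library per time, with the control at 0 by construction. miR-21-3p runs closest to miR-129-5p, at 1.29, 1.29 and 0.83 against 1.41, 1.42 and 1.03.

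Other miRNAs of the brain differed from the control to unlike degrees. Of the 16 brain-enriched miRNAs listed, 14 are in the table (not miR-124 and miR-383) and 13 had reads, with 8 arms at 100 reads. Of these 8, 0 were past 1.5-fold higher at 1 h, 2 were at 3 h (miR-132-3p and miR-7a-5p) and 1 was at 24 h (miR-132-3p), and none was lower at any time, beside 2.3%, 3.98% and 5.06% higher and 2.3%, 4.55% and 16.9% lower over all miRNAs tested. The medians of the 8 were -0.05, 0.08 and -0.25, beside -0.09, -0.06 and -0.25 for all miRNAs tested. miR-9a-5p, which is highly enriched in neural cells, counted 630 reads without Ang II, then 414 at 1 h, 504 at 3 h and 472 at 24 h. miR-128-3p, another neuronal miRNA, counted 615, then 475, 611 and 509. The list of neuron and glia markers, with miR-137-3p at 0 reads in 3 of the 4 libraries, summed to 53.1 RPM in the control, then 42.1, 45.6 and 40.2 after 1 h, 3 h and 24 h. Most of that sum is miR-9a-5p, whereas miR-138-5p was 1.02, 1.10 and 0.798 times the control and miR-219a-1-3p, on 22 to 34 reads, 1.62 times at 1 h (0.928 to 2.88), 1.31 at 3 h and 0.947 at 24 h. miR-132-3p counted 491 reads in the control and 410 (1 h), 1229 (3 h) and 1204 (24 h) in the Ang II libraries. Its cluster partner miR-212, under 100 reads in each library, also had higher counts at 3 h and 24 h: miR-212-3p was 2.15 times the control at 3 h (1.35 to 3.49) and 2.65 times at 24 h (1.7 to 4.25), and miR-212-5p, on 5 reads in the control, 6.41 times (2.48 to 21.1) and 3.37 times (1.19 to 11.7).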

How the data were processed

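Per the labels' protocols, cells grew in 10% FBS, adapters were ligated to 0.5 ug of RNA, 12 cycles of PCR followed, and inserts of 17 to 52 nt were selected. The deposited files give raw read counts of each distinct sequence, with no header and no normalization by the authors. Novoalign and the build rn4 are named, per the submitters' processing notes, with no role for either; trimming was not given in the sources used here. A row that names no sequence held 5.13% to 7.07% of the reads and was left out. Tags were matched to RefSeq mature sequences (GRCr8) by their first 18 nt; the longest common start decided between several, and ties (at most 0.242% of miRNA reads) were shared. Levels (RPM) are scaled to 1000000 deposited reads with a sequence. Exact intervals were Poisson for counts, Clopper-Pearson for shares and conditional binomial for ratios. The matching was tested on simulated data. The sequences, lists and rules were chosen with earlier results of these data known. The text names miR-129-5p, its 3' arms, tags with at least 10 reads, the 5 nearest miRNAs and the brain-enriched list, in which the table's rat names stand for the listed ones. Alternatives used TMM factors (edgeR 4.0.16, R 4.3.3), median-of-ratios factors and other matching rules. Other tools were matplotlib 3.10.9, scipy 1.17.1, pandas 2.3.3, numpy 2.4.6 and Python 3.11.15.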

Additional observations from a re-analysis of the deposited data

How the results depend on the processing

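The log2 ratio of miR-129-5p was past 1.5-fold under 13 of 13 alternatives of scale, matching, tag filter and pseudocount, from 1.21 to 1.61 at 1 h, 1.22 to 1.61 at 3 h and 0.87 to 1.30 at 24 h. Not counted among the 13 are leaving out the most read tag and taking the 1 h library as reference, under which it was not past 1.5-fold higher. The mature sequence alone gave 1.61 at 1 h and at 3 h, a pseudocount of 10 RPM gave 1.21, 1.22 and 0.87, and TMM and median-of-ratios factors gave 1.30 and 1.28 at 24 h. Without the most read tag it was -0.092, 0.082 and 0.50, which turns the direction at 1 h, and against the 1 h library it was 0.014 at 3 h and -0.37 at 24 h. For the mature tag, 10 RPM gave 1.35 at 1 h and at 3 h and 0.92 at 24 h, and TMM and median-of-ratios factors 1.38 and 1.37 at 24 h. For the 3' arm, 10 RPM gave 0.18 at 1 h and 0.56 at 24 h. For the loop, whose log2 ratios are without a pseudocount, 1 RPM gave 2.93 and 1.07 at 1 h and 3 h, 10 RPM gave 0.84 and 0.18, and leaving out its most read tag gave 1.00 at 3 h. These loop, 3' arm and mature tag settings were chosen after seeing the data.

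The number of miRNAs higher was 4, 7 and 9 at 1 h, 3 h and 24 h. With TMM factors it was 7, 11 and 14, with median-of-ratios factors 7 at 1 h, with 20 reads 8 and 13 at 1 h and 3 h, with 500 reads 5 at 24 h and at 2-fold 3 at 24 h. The number lower was 4, 8 and 30. It was 9 and 15 at 1 h and 3 h scaled to mature miRNA reads, 9 and 11 at 24 h with TMM and median-of-ratios factors, 1 and 15 at 1 h and 24 h with 500 reads, 1, 4 and 13 with 10 RPM, and 0, 2 and 4 at 2-fold. Shares of the mature tag and the 3' arm stayed within their intervals. Of 45 values for the 5 nearest miRNAs under other scales, 39 lay within their intervals and 0 changed direction. The causes of these moves were not tested. No paired analysis was possible because each group has 1 library. The 3 loop reads in the control and 2 at 24 h leave wide intervals on the loop ratios.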
